A study of Mus musculus with 9 samples.

Results

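The genes described here are 8 members of the SOX family of transcription factors (Sox4, Sox5, Sox6, Sox9, Sox10, Sox11, Sox12 and Sox13) and the zinc-finger factors Bcl11a and Bcl11b. They were listed by name, with earlier results of these data known, and make up 10 of the 27179 genes in the count table. RNA was sequenced in bulk from 3 luminal cell populations that had been sorted from adult mouse mammary gland by flow cytometry, with lineage-positive cells removed and with 3 libraries per population. The populations are called by the names in the labels. HR-negative LP cells carried the surface protein CD14 and lacked the YFP reporter of PR-cre, and HR-positive LP cells carried both. ML cells lacked CD14. The sample labels call ML cells YFP positive, whereas the text on the series' design calls them YFP negative, and the labels were followed here. Strain, exact age, sex and further alleles are not given in the sources used here. All populations come from tissue with the PR-cre reporter, so membership rests on where PR-cre had been active and not on a stain for the receptor. The labels do not say whether the 3 libraries of a population came from separate animals, so p-values measure only the spread between these libraries.

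SOX proteins bind DNA through an HMG box that bends the double helix, and they act in subgroups whose members share most of their sequence and can stand in for each other. SOX9 and SOX10 (subgroup E) are activators known from cartilage, neural crest and stem or progenitor cells of glands. SOX5, SOX6 and SOX13 (subgroup D) lack an activation domain of their own and work beside other factors. SOX4, SOX11 and SOX12 (subgroup C) are activators of developing and dividing tissues. BCL11A and BCL11B are repressors best known from blood cells, where BCL11A and SOX6 together silence embryonic globin genes. In the mouse mammary gland, Sox9 and Bcl11a have been tied to the maintenance of luminal progenitors.

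The libraries held 27219103 to 108119756 counts and 15239 to 17735 detected genes, and 15910 genes passed the filter on low counts. Of the 10 genes, 8 passed it, while Sox11 and Bcl11b did not. Levels are given as CPM (counts relative to the TMM-scaled size of the library) with the SD over 3 libraries. Where genes are compared with each other, they are given as RPKM (the same per kilobase of the deposited gene length). Luminal keratins, claudins and Epcam summed to between 13790 and 18444 CPM in every library. The 12 basal markers summed to 59.8 to 104 CPM in HR-negative LP, 39.7 to 57.8 CPM in HR-positive LP and 36.1 to 55.4 CPM in ML. Among them Krt14 was higher in HR-negative LP, at 14.3 CPM against 4.22 and 4.18 CPM, whereas Krt5 stood at 2.25, 4.76 and 6.36 CPM, Acta2 at 7.42, 10.1 and 10.5 CPM and Trp63 at 0.683, 1.02 and 1.07 CPM. Of 7 fibroblast markers 6 were called lower and 1 (Dcn) higher in HR-positive than in HR-negative LP. Of all tested genes 12.8% were called lower and 17.2% higher in this comparison. The sum of the fibroblast markers ranged from 61.4 to 318 CPM over all libraries. Dcn, whose mean rose from 8.94 through 129 to 153 CPM, made up most of this sum outside HR-negative LP. The other 6 markers had their highest mean in HR-negative LP. The T cell markers summed to at most 1.49 CPM, the B cell markers to at most 1.33 CPM, and the 6 endothelial markers to between 3.07 and 7.10 CPM, with Pecam1 at 3.39, 2.50 and 3.37 CPM. In bulk samples, fewer cells that express a gene and less RNA of it per cell cannot be told apart.

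HR-negative LP was the population with the highest levels of Sox5, Sox6, Sox10, Sox13 and Bcl11a, ML had the lowest, and HR-positive LP lay between them. Sox12 ran the other way in its means, although its HR-positive LP and ML libraries overlapped. Sox4 and Sox9 were high in all 3 populations without a called difference. In HR-positive against HR-negative LP, 1 of the 8 tested genes was higher and 5 were lower at an adjusted p below 0.05 (edgeR quasi-likelihood test, adjusted over all tested genes), where 29.9% of all tested genes were called, 17.2% higher and 12.8% lower. In that comparison all genes split into 2731 higher and 2033 lower, and into 3182 and 1535 when libraries were scaled by their totals alone. In ML against HR-positive LP, 0 were higher and 4 lower (0 and 5 at an unadjusted p below 0.05, 0 and 4 with DESeq2, 0 and 3 with limma voom), where 6.79% of all tested genes were called, 0.0943% higher and 6.70% lower. In ML against HR-negative LP, 1 was higher and 5 lower, where 44.6% of all tested genes were called, 23.3% higher and 21.3% lower. The comparisons share libraries, so their counts are not independent of each other. The median log2 fold change over all tested genes was 0.01, 0.01 and 0.03 in the same order.

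**Figure D1:**
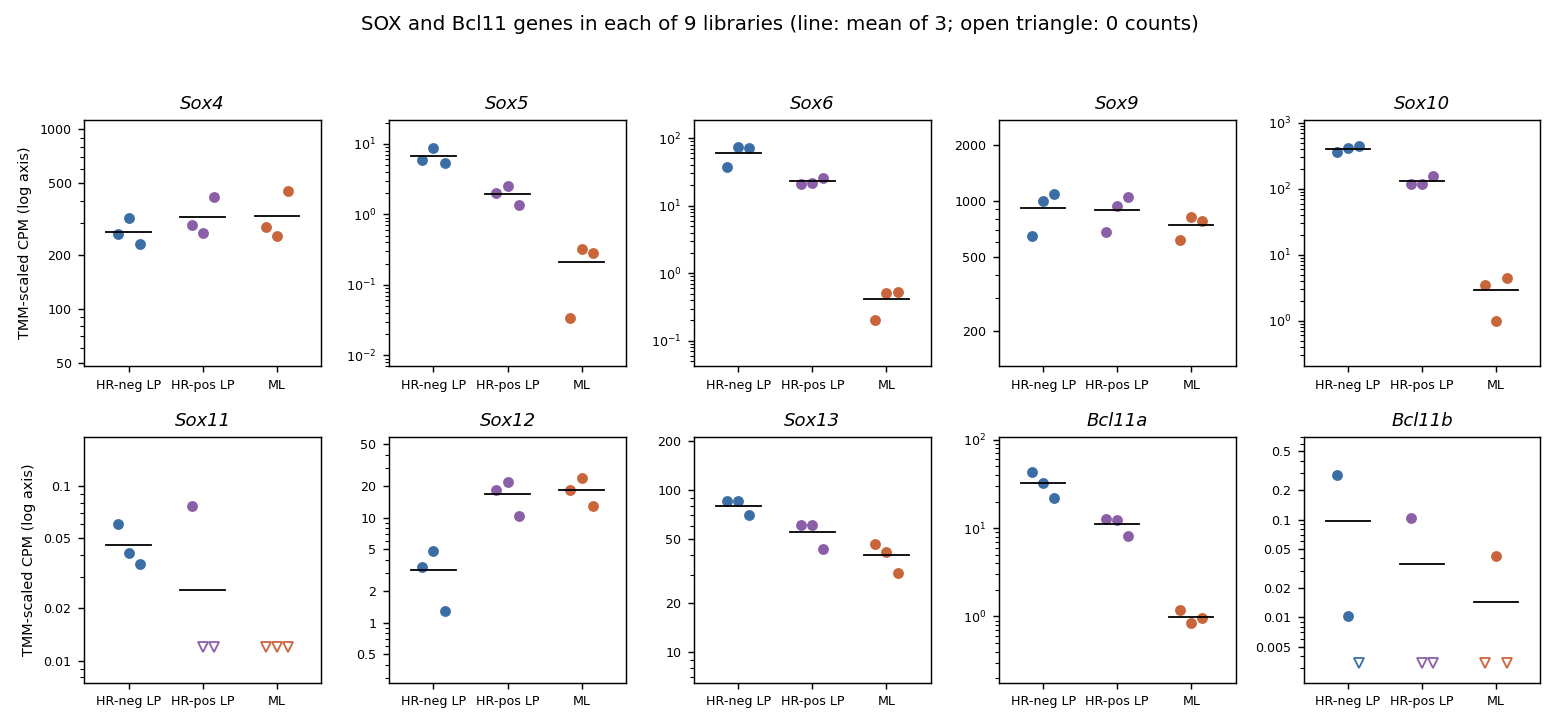
TMM-scaled CPM of the 10 genes on log axes, with a point for each of the 9 libraries, a line for the mean of 3 and open triangles for libraries with 0 counts. Sox10 and Sox6 step down from HR-negative LP through HR-positive LP to ML without overlap. Sox12 is higher in HR-positive LP and ML, which overlap each other, than in HR-negative LP. Sox4 and Sox9 overlap in all populations, and Sox11 and Bcl11b have at most 14 counts in any library.

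Promoter windows show how differently the starts of these genes are built. RefSeq (GRCm38.p6, the assembly also called mm10) gave 300-base windows, from 250 bases before to 50 after an annotated start, for 8 of the 10 genes. Sox9 and Sox10 had no window. Bcl11a and Sox12 are printed because the former fell and the latter rose from HR-negative LP to ML, and Sox6 because it had the widest range of the 8 tested genes and has 6 annotated starts. The Bcl11a window lies at chr11:24080445-24080744 on the plus strand, the Sox12 window at chr2:152397997-152398296 on the minus strand, and the printed Sox6 windows at chr7:116038695-116038994 and chr7:115824661-115824960 on the minus strand. Each runs 5′ to 3′ along its gene. Capitals mark the words searched on both strands, which were AACAAT and ACAAAG (SOX proteins), TGACCA (BCL11A), GGGCGG (GC box) and the TATA box word TATAAA, and a word on the opposite strand appears as its reverse complement.
Bcl11a: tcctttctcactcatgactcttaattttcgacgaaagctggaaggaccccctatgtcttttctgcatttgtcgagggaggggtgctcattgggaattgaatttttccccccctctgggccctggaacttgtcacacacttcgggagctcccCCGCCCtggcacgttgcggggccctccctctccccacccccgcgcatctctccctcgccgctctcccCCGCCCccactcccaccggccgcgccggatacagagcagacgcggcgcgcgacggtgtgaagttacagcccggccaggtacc
Sox12: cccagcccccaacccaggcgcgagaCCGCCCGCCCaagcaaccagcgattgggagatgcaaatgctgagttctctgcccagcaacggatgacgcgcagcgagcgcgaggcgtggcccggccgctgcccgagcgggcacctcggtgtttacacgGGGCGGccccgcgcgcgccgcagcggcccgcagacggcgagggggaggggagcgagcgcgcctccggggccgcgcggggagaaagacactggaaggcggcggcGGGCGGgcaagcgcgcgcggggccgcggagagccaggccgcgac
Sox6, start 1: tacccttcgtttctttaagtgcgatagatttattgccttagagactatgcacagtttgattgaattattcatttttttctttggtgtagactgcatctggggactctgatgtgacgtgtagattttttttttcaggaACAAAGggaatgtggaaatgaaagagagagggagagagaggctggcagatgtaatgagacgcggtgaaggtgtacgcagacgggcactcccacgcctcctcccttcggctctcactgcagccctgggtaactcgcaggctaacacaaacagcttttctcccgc
Sox6, start 5: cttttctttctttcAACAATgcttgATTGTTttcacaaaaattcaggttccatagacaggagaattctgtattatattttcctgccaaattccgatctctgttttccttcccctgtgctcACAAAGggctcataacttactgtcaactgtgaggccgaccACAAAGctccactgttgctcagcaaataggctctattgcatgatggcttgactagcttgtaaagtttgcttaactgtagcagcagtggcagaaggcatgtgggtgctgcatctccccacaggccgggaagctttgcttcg
The Sox12 window was the richest in CpG of those of the 8 genes, with 47 CpG and 76.7% GC, followed by Sox13 with 40 and 73.3% and Bcl11a with 23 and 63.0%. Over all 32817 windows in the table the median was 7 CpG and 52.7% GC. Sox5 had 3 CpG, and the Sox6 windows had between 2 and 13. The Sox12 window held GGGCGG at 4 places, a pair of which overlap each other, and the Bcl11a window held it at 2 places, as 35.6% of all windows did at 1 or more. The windows of Sox6 start 2 and Sox11, which are not printed, held GGGCGG as well. ACAAAG was in the windows of Sox6 starts 1 to 5, against 18.7% of all windows. AACAAT was in the window of start 5 alone, once on each strand, against 10.7% of all windows. TATAAA was in the windows of Sox6 starts 3 and 6 and of Bcl11b, against 13.6% of all windows. TGACCA, found in 13.6% of all windows, was in none of the windows of these genes. A match describes the letters of a window and not a bound site, and the counts of a gene do not say which start was used.

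Of the subgroup E activators, Sox10 fell across the populations while Sox9 had no called difference. Sox9 (gene ID 20682, chromosome 11, 112782210 to 112787757, mm10), which directs cartilage formation and marks progenitor cells of several epithelia, stood at 648, 1001 and 1089 CPM in the HR-negative LP libraries. It stood at 681, 935 and 1051 CPM in HR-positive LP and at 616, 822 and 779 CPM in ML. The populations overlapped, with means of 913 ± 234, 889 ± 189 and 739 ± 109 CPM (SD, n = 3). The log2 fold change was -0.04 (SE 0.22, adjusted p = 0.916) from HR-negative LP to HR-positive LP and -0.27 (SE 0.22, adjusted p = 0.785) from there to ML. In the latter comparison Sox9 was lower in ML in each of the 3 pairs of libraries with the same replicate number. With the number as a block the value was -0.25 (SE 0.11, edgeR adjusted p = 0.291). From HR-negative LP to ML the log2 fold change was -0.30 (SE 0.22, edgeR adjusted p = 0.299). ML was again lower in each of the 3 pairs, and the block gave -0.28 (SE 0.11, edgeR adjusted p = 0.0642).

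Sox10 (gene ID 20665, chromosome 15, 79154913 to 79164490), known as the master factor of glia and melanocytes and also present in gland epithelium, stood at 359, 412 and 443 CPM in HR-negative LP. The HR-positive LP libraries had 117, 119 and 159 CPM and the ML libraries 3.52, 0.979 and 4.40 CPM. No 2 populations overlapped, and ML replicate 2 was the lowest of all libraries. Sox10 was 3.08-fold lower in HR-positive than in HR-negative LP (log2 fold change -1.62, SE 0.37, adjusted p = 0.00686). It was a further 44.7-fold lower in ML (log2 fold change -5.48, SE 0.44, adjusted p = 1.00e-05). From HR-negative LP to ML the difference was 138-fold (log2 fold change -7.10, SE 0.47, adjusted p = 6.48e-07). Leaving out ML replicate 2 kept these calls.

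The ratio of Sox10 to Sox9 within a library does not depend on how libraries are scaled. Per kilobase it was 0.847, 0.628 and 0.622 in the HR-negative LP libraries, 0.262, 0.194 and 0.231 in the HR-positive ones, and 0.00873, 0.00182 and 0.00864 in those of ML. The populations did not overlap. The mean log2 ratio differed by -1.61 between HR-positive LP and HR-negative LP, by -5.46 between ML and HR-positive LP and by -7.07 between ML and HR-negative LP. An exact two-sided permutation test gave p = 0.1 for each, the smallest value that 3 libraries against 3 allow. The matching ratio of Bcl11a to Bcl11b was not computed, since Bcl11b had 0 counts in 5 of the 9 libraries.

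As shares of the summed RPKM of subgroup E, Sox9 took 58.7% ± 4.30 in HR-negative LP, 81.2% ± 2.25 in the HR-positive cells and 99.3% ± 0.392 in ML, and Sox10 took 40.7% ± 4.21, 18.5% ± 2.26 and 0.634% ± 0.392. Sox8, the other subgroup E gene, held the remainder, at most 0.670% in any library. The summed level was 371 ± 71.9, 263 ± 52.6 and 179 ± 26.0 RPKM. Sox8 followed the order of Sox10, with 5.83, 7.18 and 5.76 CPM in the HR-negative LP libraries, 1.52, 2.12 and 1.71 CPM in the HR-positive ones and 0.10, 0.170 and 0.188 CPM in ML. Its log2 fold changes were -1.81 (SE 0.37, adjusted p = 0.00384) and -3.49 (SE 0.43, adjusted p = 0.00024) from population to population.

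**Figure D2:**
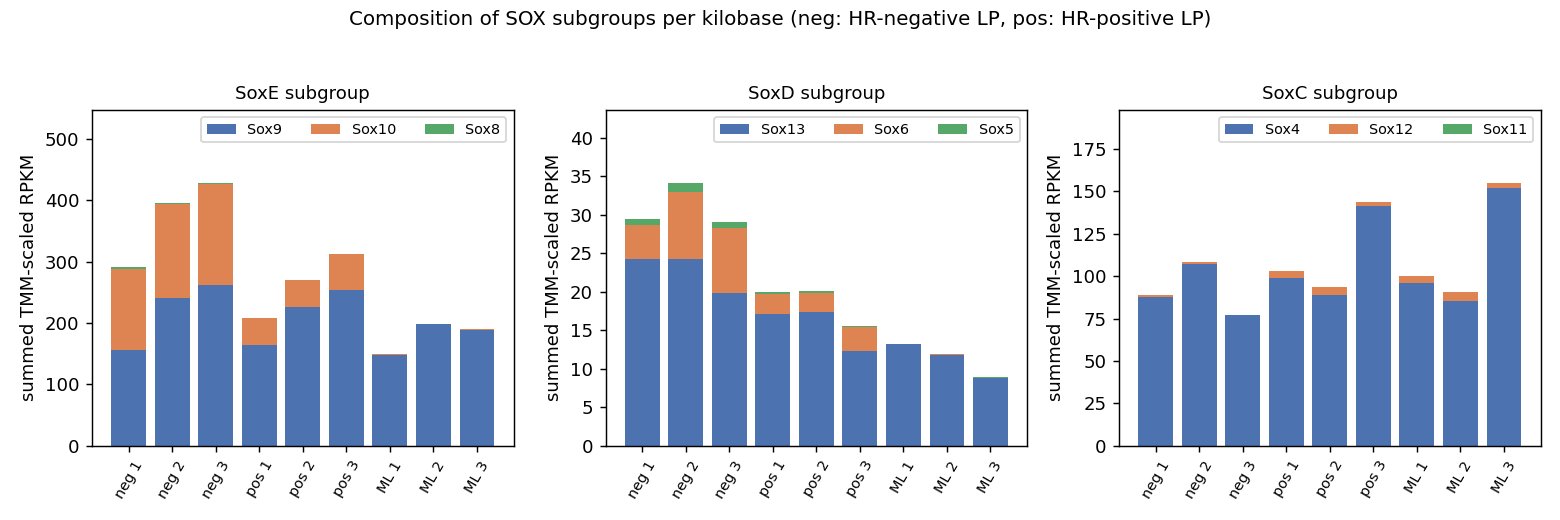
Summed RPKM (TMM-scaled) of the subgroup E, D and C genes in each of the 9 libraries, with the bars split by gene. The Sox10 segment shrinks from HR-negative LP to HR-positive LP and is barely visible in ML while the Sox9 segment stays, Sox6 fades from subgroup D, and Sox4 makes up nearly all of subgroup C in every library.

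Among the subgroup D genes, Sox6 and Sox5 were close to absent from ML while Sox13 was not. Sox6 (gene ID 20679, chromosome 7, 115470872 to 116040776), a partner of SOX9 in cartilage and of BCL11A in red cell precursors, stood at 37.2, 73.9 and 72.1 CPM in HR-negative LP. It stood at 21.1, 21.3 and 26.0 CPM in HR-positive LP and at 0.201, 0.511 and 0.518 CPM in ML. No populations overlapped, and HR-negative LP replicate 1 lay nearest to HR-positive LP. Sox6 was 2.68-fold lower in HR-positive than in HR-negative LP (log2 fold change -1.42, SE 0.28, adjusted p = 0.00305) and a further 53.1-fold lower in ML (log2 fold change -5.73, SE 0.37, adjusted p = 2.29e-06). The whole span of 143-fold (log2 fold change -7.15, SE 0.38, adjusted p = 1.51e-07) was the widest among the tested members of the set.

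Sox5 (gene ID 20678, chromosome 6, 143828425 to 144782287), the close relative of Sox6 with overlapping roles in cartilage, was far less abundant. The HR-negative LP libraries had 5.85, 8.69 and 5.30 CPM, the HR-positive LP libraries 2.01, 2.49 and 1.35 CPM, and the ML libraries 0.0335, 0.319 and 0.283 CPM. In ML these values rest on 1, 15 and 12 counts. The populations did not overlap. Sox5 was lower in HR-positive than in HR-negative LP by 3.40-fold (log2 fold change -1.76, SE 0.53, adjusted p = 0.0272), a call that did not hold without HR-negative LP replicate 2 (adjusted p = 0.0855) or without any of the HR-positive LP replicates (adjusted p = 0.0582 to 0.0993). It was a further 8.75-fold lower in ML (log2 fold change -3.13, SE 0.60, adjusted p = 0.00646), although limma voom gave an adjusted p of 0.102. Of 50-base stretches of its annotated transcripts, 8.98% also occur in those of other genes, mostly of the antisense gene Sox5os1, and the library kit does not mark strand.

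Sox13 (gene ID 20668, chromosome 1, 133382300 to 133424459), a subgroup D gene studied in lymphocytes and developing nerve tissue, changed least of the called genes. It stood at 85.7, 85.5 and 70.0 CPM in HR-negative LP, at 60.6, 61.2 and 43.6 CPM in HR-positive LP and at 46.5, 41.7 and 31.0 CPM in ML. HR-negative LP did not overlap the others, while HR-positive LP and ML did overlap. Replicate 3 was the lowest of its population in all 3. The fall from HR-negative LP to ML was 2.02-fold (log2 fold change -1.02, SE 0.19, adjusted p = 0.00116). The step to HR-positive LP was 1.46-fold (log2 fold change -0.54, SE 0.19, adjusted p = 0.0478). That call was lost when libraries were scaled by their totals (adjusted p = 0.128), in a fit of only the compared populations (adjusted p = 0.0571), and without any of the replicates except HR-negative LP replicate 3 and ML replicate 3, with adjusted p of 0.0525 to 0.176. The step from HR-positive LP to ML did not pass (log2 fold change -0.47, SE 0.19, adjusted p = 0.26), but did so with the replicate number as a block (adjusted p = 0.0270).

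Per kilobase, Sox13 was the main subgroup D gene everywhere, with 73.9% ± 7.51, 83.8% ± 3.94 and 99.3% ± 0.468 of the subgroup sum. Sox6 held 23.2% ± 7.46, 14.8% ± 4.14 and 0.457% ± 0.257, and Sox5 held 2.89%, 1.41% and 0.278%. The sum fell from 30.9 ± 2.82 RPKM in HR-negative LP through 18.6 ± 2.57 to 11.3 ± 2.22 RPKM in ML, a description for which no test was run.

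In subgroup C, Sox4 was abundant without a called difference, Sox12 was scarce and higher outside HR-negative LP, and Sox11 was at or near 0. Sox4 (gene ID 20677, chromosome 13, 28948919 to 28953699), an activator in lymphocyte development and many tumours, stood at 261, 318 and 229 CPM in the HR-negative LP libraries, 293, 263 and 419 CPM in the HR-positive ones and 285, 253 and 451 CPM in ML. All populations overlapped, and replicate 3 was the highest in HR-positive LP and in ML but the lowest in HR-negative LP. The log2 fold change from HR-negative LP was 0.27 (SE 0.24, adjusted p = 0.441) to HR-positive LP and 0.29 (SE 0.24, adjusted p = 0.364) to ML. Of the 50-base stretches of Sox4 transcripts, 54.1% also lie in Gm26735, a transcript annotated over the same bases that was not counted on its own. Reads of both cannot be separated, so the level of Sox4 is uncertain.

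Sox12 (gene ID 20667, chromosome 2, 152393611 to 152398046), the least studied subgroup C gene, stood at 3.41, 4.79 and 1.29 CPM in HR-negative LP. It stood at 18.2, 21.8 and 10.5 CPM in HR-positive LP and at 18.5, 23.7 and 12.9 CPM in ML. The HR-negative LP libraries were all below the other 6, which overlapped each other, and replicate 3 was the lowest of each population. Sox12 was 5.20-fold higher in HR-positive than in HR-negative LP (log2 fold change 2.38, SE 0.44, adjusted p = 0.00227) and 5.68-fold higher in ML (log2 fold change 2.51, SE 0.44, adjusted p = 0.000847). Between HR-positive LP and ML the log2 fold change was 0.13 (SE 0.42, adjusted p = 0.972). Even so, Sox12 was a small share of subgroup C per kilobase, at 0.746%, 3.62% and 3.98%, with Sox4 at 99.2%, 96.4% and 96.0%.

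Sox11 (gene ID 20666, chromosome 12, 27334268 to 27342718), a gene of developing neurons, had 3, 4 and 1 counts in HR-negative LP, 8, 0 and 0 counts in HR-positive LP and 0 counts in all ML libraries. These totals were too low to test, and the 0 of ML allows up to 0.0251 CPM (3 counts over the 3 libraries). The HR-negative LP mean of 0.0458 CPM is so near that limit that no difference was detectable at this depth.

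**Figure D3:**
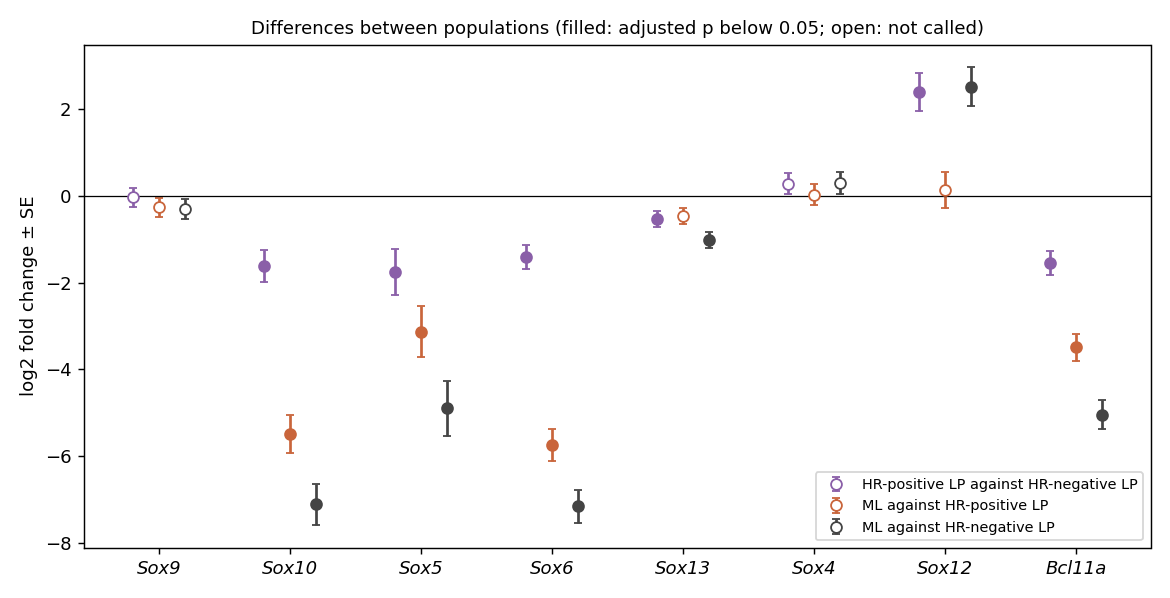
Log2 fold changes with their SE for the 8 tested genes in 3 comparisons, with filled points for an adjusted p below 0.05. The ML comparisons reach below -7 for Sox10 and Sox6, Sox12 is the only gene above 2, and the points of Sox4 and Sox9 are unfilled and near 0.

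Bcl11a (gene ID 14025, chromosome 11, 24076564 to 24173558), the repressor tied to luminal progenitors and to globin silencing, stood at 43.5, 32.5 and 21.8 CPM in HR-negative LP. It stood at 12.6, 12.5 and 8.23 CPM in HR-positive LP and at 1.17, 0.851 and 0.965 CPM in ML. No populations overlapped, and replicate 3 was the lowest in both CD14-positive populations. Bcl11a was 2.93-fold lower in HR-positive than in HR-negative LP (log2 fold change -1.55, SE 0.27, adjusted p = 0.00165) and a further 11.2-fold lower in ML (log2 fold change -3.49, SE 0.31, adjusted p = 2.14e-05). From HR-negative LP to ML it was 32.9-fold lower (log2 fold change -5.04, SE 0.33, adjusted p = 5.38e-07). Of its 50-base transcript stretches 1.68% are shared, with 4930538E20Rik.

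Bcl11b (gene ID 58208, chromosome 12, 107910403 to 108004145), the paralog that directs T cell development, had 14, 1 and 0 counts in HR-negative LP, 11, 0 and 0 in the HR-positive libraries and 0, 2 and 0 in ML. In both LP populations nearly all of the counts came from replicate 1. It was not tested. Of the 6 T cell markers, Cd3e had 1 count in all libraries together, Cd3d 9 and Lck 474, and Cd2, Cd247 and Cd3g had 0.

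Ranked per kilobase among 19 SOX genes, Sox9 had the highest mean in every population, at 220.1 ± 56.4, 214 ± 45.6 and 178 ± 26.3 RPKM. The next places changed hands. In HR-negative LP Sox10 (149 ± 15.7 RPKM) stood above Sox4 (90.7 ± 15.3 RPKM), with no overlap between their libraries. In HR-positive LP Sox4 (109.6 ± 27.9 RPKM) stood above Sox10 (48.4 ± 8.69 RPKM), again without overlap. In ML Sox4 (111 ± 35.8 RPKM) came before Sox13 (11.3 ± 2.25 RPKM), Sox12 (4.14 ± 1.22 RPKM) and Sox15 (1.93 ± 0.649 RPKM), and Sox10 was in place 6 at 1.09 ± 0.655 RPKM. Sox6, Sox8, Sox14 and Sox5 followed Sox13 in HR-negative LP at 7.20, 2.09, 1.86 and 0.902 RPKM. Summed over the 19 genes the level was 496 ± 73.6, 398 ± 71.4 and 308 ± 44.8 RPKM. The values of Sox4 carry the doubt about shared bases given above.

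HR-positive LP was also set against the log-scale midpoint of both other populations. It lay above the midpoint for Sox6 by 2.15 log2 units (SE 0.25, adjusted p = 0.00057), for Sox10 by 1.93 (SE 0.30, adjusted p = 0.00291) and for Bcl11a by 0.97 (SE 0.23, adjusted p = 0.0325). These were 3 of the 8 tested genes, where 6.01% of all tested genes were called, 5.97% above and 0.0377% below. The call of Bcl11a did not hold without HR-negative LP replicate 2 (adjusted p = 0.0580), HR-positive LP replicates 1 (0.156) or 2 (0.168), or ML replicates 2 (0.0934) or 3 (0.0777). Limma voom called 1 of the 3, with adjusted p of 0.0533 for Sox6 and 0.260 for Bcl11a. Without HR-positive LP replicate 2, 566 genes were called in place of 956. Sox12 (1.13, SE 0.35, adjusted p = 0.104) did not pass, but did so with the replicate block (adjusted p = 0.00361), with DESeq2 (0.0416) and without HR-negative LP replicate 2 (0.0460).

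On a linear scale the picture of the middle population was different. With the ML mean set to 0% and the HR-negative LP mean to 100%, the HR-positive LP mean was at 32.0% for Sox10, 36.8% for Sox6, 27.1% for Sox5 and 32.0% for Bcl11a. The single libraries were at 28.4%, 28.8% and 38.8% for Sox10, and at 36.8%, 36.4% and 22.9% for Bcl11a. Sox13 was at 37.8%, with its libraries spread from 9.51% to 52.7%. Sox12, which ran the other way, was at 10.2%, with libraries from -22.5% to 51.9%, so its position is not resolved. Over all 2202 genes called lower in ML than in HR-negative LP by a log2 fold change below -1, the median position was 29.6% (quartiles 24.5% and 34.2%). Over the 2317 genes called higher with a log2 fold change over 1 it was 30.0% (quartiles 22.0% and 38.4%). Kit was at 33.2%, Elf5 at 28.8%, the sort marker Cd14 at 27.5%, Esr1 at 26.8%, Pgr at 36.7% and Foxa1 at 29.2%. Sox10, Sox5 and Bcl11a thus lay within the quartiles of all genes lower in ML. Sox6 and Sox13 lay above the upper quartile, Sox13 with widely spread libraries. This measure was added after the data had been seen and is given as a description without a test.

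**Figure D4:**
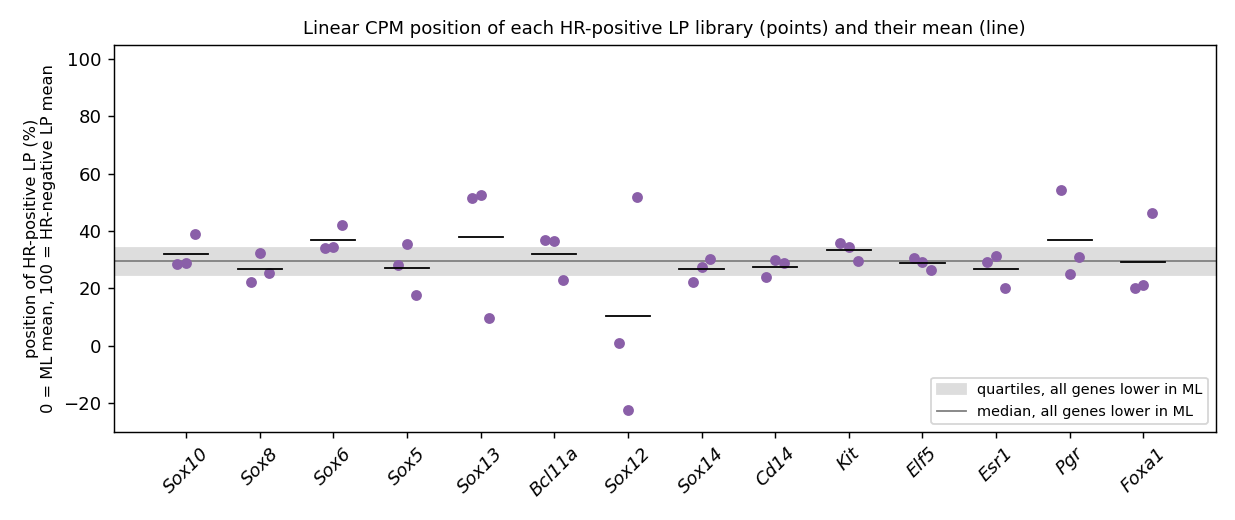
Position of HR-positive LP on a linear CPM scale from the ML mean (0%) to the HR-negative LP mean (100%), with a point for each HR-positive LP library, a line for their mean, and the median and quartiles of all genes lower in ML as a grey line and band. Most means lie near the band, and Sox12 and Sox13 have the widest spread between libraries among the SOX genes.

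Likeness of pattern was measured as the root mean square difference of centred log2 CPM over the 9 libraries, among 9155 genes above a mean log2 CPM of 3. Closest to Sox10 were Aldh1a3, which encodes a retinaldehyde dehydrogenase (0.168), Stac2 (0.234) and Fads2, a fatty acid desaturase gene (0.255). Aldh1a3 stood at 1338, 423 and 9.63 CPM in the 3 populations. Closest to Sox6 were Plce1, a phospholipase C gene (0.284), Pgm5 (0.357) and the caveolar gene Cavin2 (0.371). For Sox12 these were Myzap (0.228), Fndc10 (0.290) and Aph1c, a subunit gene of gamma-secretase (0.336). For Sox13 they were Gpd1l (0.0473), Dele1 (0.123) and Fntb (0.127), for Sox9 Tiparp (0.0977), Rbm15b (0.0980) and Supt6 (0.0993), and for Sox4 Steap4 (0.117), Fam83b (0.130) and Atat1 (0.173). Sox5 and Bcl11a were below the level set for this search. Among the 8 tested genes themselves, the most alike pairs were Sox4 with Sox9 (0.412), Sox9 with Sox13 (0.526) and Sox4 with Sox13 (0.701). Among pairs with both genes called in ML against HR-negative LP, Sox6 with Sox10 (0.768) and Sox5 with Bcl11a (0.790) were the most alike. Sox10 with Sox12 was the least alike (4.21), and Sox9 with its paralog Sox10 was at 3.08.

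Of 11 other SOX genes 5 were tested, and with edgeR 0 were higher and 2 lower in each comparison between populations, the same counts as at an unadjusted p below 0.05, with median log2 fold changes of -0.71, -2.19 and -2.90. Of all tested genes 12.8%, 6.70% and 21.3% were called lower in these comparisons. The 2 were Sox8 and Sox14 in each case. Sox14, a subgroup B repressor known from the nervous system, stood at 3.87, 5.62 and 2.04 CPM in HR-negative LP, at 0.858, 1.06 and 1.16 CPM in HR-positive LP and had 0 counts in all ML libraries. Set against the limit of 3 counts over the ML libraries, it was at least 153-fold lower in ML than in HR-negative LP (adjusted p = 4.11e-05) and at least 40.8-fold lower than in HR-positive LP (adjusted p = 0.000719). Between HR-positive LP and HR-negative LP its log2 fold change was -1.91 (SE 0.56, adjusted p = 0.0312). Sox7, Sox15 and Sox21 did not pass in any of these comparisons, and Sox15 was the most abundant of them, at 2.19 CPM in ML.

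The genes through which SOX9, with SOX5 and SOX6, builds cartilage did not share a direction. Of 9 listed genes 6 were tested. In HR-positive against HR-negative LP 1 was higher and 3 were lower (median log2 fold change -1.91), in ML against HR-positive LP 0 and 3 (-4.85), and in ML against HR-negative LP 1 and 4 (-6.86), where 29.9%, 6.79% and 44.6% of all tested genes were called. The 3 chains of collagen IX, a cartilage collagen, fell at each step. Col9a1 stood at 30.3, 38.6 and 28.8 CPM in the HR-negative LP libraries, 7.01, 6.75 and 5.93 CPM in the HR-positive ones and 0.167, 0.0638 and 0 CPM in ML. No populations overlapped, and its log2 fold change from HR-negative LP to ML was -8.86 (SE 0.51, adjusted p = 2.18e-07). Col9a3 went from 73.4 ± 7.11 through 16.6 ± 1.71 to 0.577 ± 0.549 CPM, and Col9a2 from 60.9 ± 4.59 through 16.7 ± 1.21 to 0.578 ± 0.447 CPM. Col11a2 rose instead, from 3.52 ± 2.72 to 9.86 ± 1.65 CPM in HR-positive LP (log2 fold change 1.52, adjusted p = 0.0293) and 14.0 ± 3.71 CPM in ML (2.03, adjusted p = 0.00469). The cartilage core protein gene Acan was also lower in ML than in HR-negative LP (adjusted p = 0.00777), from 0.0404, 1.62 and 2.68 CPM to 0, 0 and 0.0235 CPM.

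**Figure D5:**
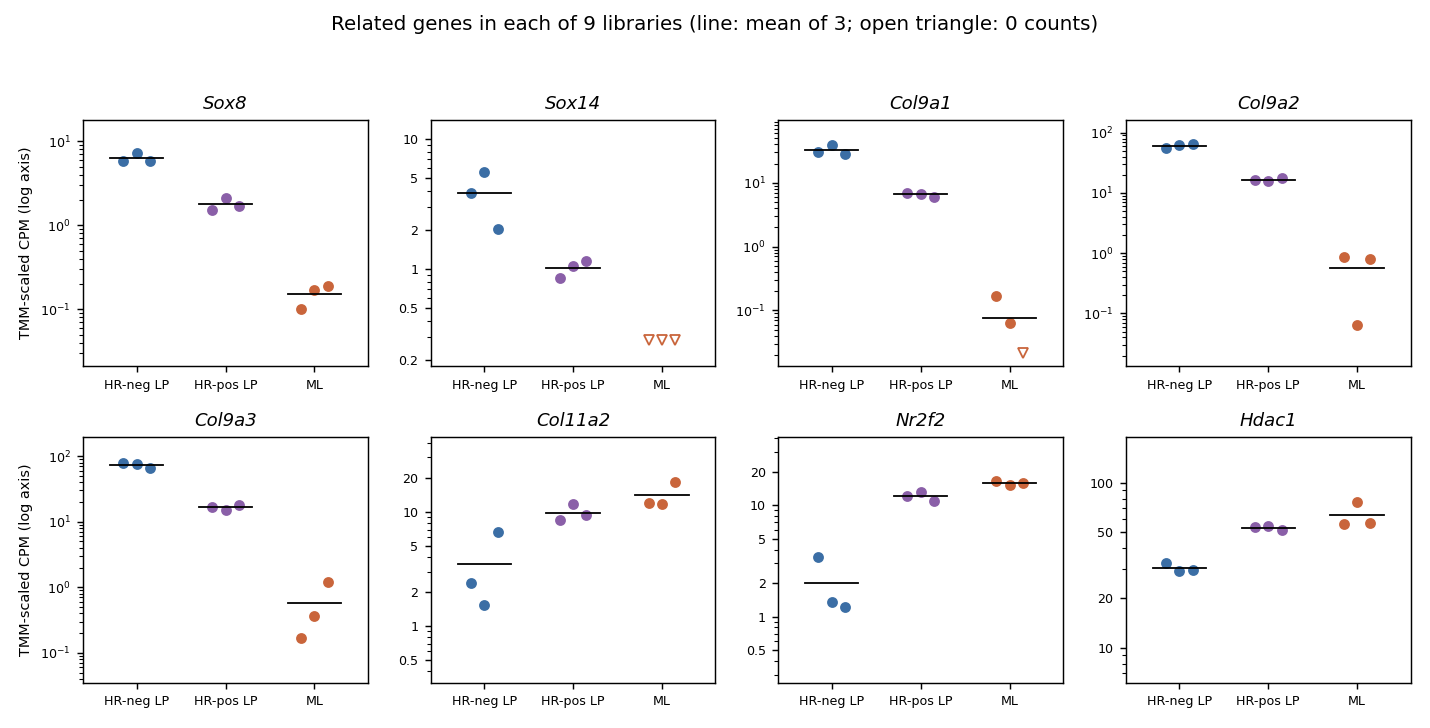
TMM-scaled CPM on log axes, in each of the 9 libraries, of genes from the same family, the target lists and the partner lists, with lines for the mean of 3 and open triangles for 0 counts. Sox8, Sox14 and the 3 collagen IX genes step down from HR-negative LP to ML, and Col11a2, Nr2f2 and Hdac1 are higher in HR-positive LP and ML than in HR-negative LP on average.

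Among known glial and melanocyte targets of SOX10, calls were made in 1 of the 3 comparisons of populations. Of 13 listed genes 9 were tested, and with edgeR 0 were called in either direction in HR-positive against HR-negative LP and in ML against HR-positive LP (at an unadjusted p below 0.05, 1 higher and 1 lower in the former and 0 and 1 in the latter). In ML against HR-negative LP 1 was higher and 2 were lower, with a median log2 fold change of -0.64. Of all tested genes 29.9%, 6.79% and 44.6% were called in these comparisons. Egr2, an early response factor that drives myelin genes in Schwann cells, fell from 45.2 ± 5.63 CPM in HR-negative LP to 20.9 ± 3.56 CPM in ML (log2 fold change -1.11, adjusted p = 0.000749). Pou3f1 fell from 3.26 ± 0.547 to 1.0 ± 0.66 CPM (log2 fold change -1.70, adjusted p = 0.0256). The receptor gene Erbb3 was higher in ML, at 338 ± 41.4 against 224 ± 82.7 CPM (log2 fold change 0.59, adjusted p = 0.0499), with overlapping libraries. The 5 melanocyte markers summed to at most 3.37 CPM in any library. The 7 Schwann markers summed to 78.5 to 151 CPM in HR-negative LP, 88.7 to 112 CPM in HR-positive LP and 80.0 to 107 CPM in ML, with most of it from Mbp, at 95.9, 83.7 and 76.9 CPM. Of these markers Cdh19 fell with Sox10, from 8.85 through 2.65 to 0.0294 CPM (log2 fold change -8.32 from HR-negative LP to ML, adjusted p = 3.85e-06), whereas Ncmap rose from 0.494 through 9.46 to 12.6 CPM (4.98, adjusted p = 0.00157). Of the 3 listed targets of subgroup C factors 2 were tested. Ezh2, a histone methyltransferase gene, was lower in HR-positive LP (25.5 CPM, adjusted p = 0.0393) and in ML (25.4 CPM, adjusted p = 0.0267) than in HR-negative LP (37.4 CPM), and neither call held when libraries were scaled by their totals.

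Of 25 BAF complex subunits, a chromatin remodeller in which BCL11A and BCL11B have been found, 24 were tested. In HR-positive against HR-negative LP 1 was higher and 3 were lower (median log2 fold change -0.05), and in ML against HR-negative LP 3 were higher and 5 lower (-0.15), which are 4 and 8 calls beside the 29.9% and 44.6% of all genes. With edgeR, 0 were called in ML against HR-positive LP, and 0 had an unadjusted p below 0.05. The ATPase gene Smarca4 rose from 133, 164 and 142 CPM in HR-negative LP to 254, 257 and 240.5 CPM in HR-positive LP and stood at 272, 286 and 262 CPM in ML (log2 fold change 0.90 from HR-negative LP to ML, adjusted p = 0.000148). Bcl7c fell from 28.3 to 13.2 CPM (log2 fold change -1.10, adjusted p = 0.00073) and Ss18 from 123 to 75.6 CPM (-0.70, adjusted p = 0.00147), while Smarcc1 rose from 78.5 to 109 CPM (0.47, adjusted p = 0.00509).

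All 16 listed members of the NuRD and related corepressor complexes were tested. In HR-positive against HR-negative LP 3 were higher and 1 lower (median log2 fold change 0.10), in ML against HR-positive LP 0 and 0 with edgeR (also 0 at an unadjusted p below 0.05), and in ML against HR-negative LP 4 and 1 (0.11). These are 4, 0 and 5 calls beside the 29.9%, 6.79% and 44.6% of all genes. The deacetylase gene Hdac1 rose from 30.5 ± 1.69 through 53.4 ± 1.37 to 63.5 ± 11.2 CPM (log2 fold change 1.06 from HR-negative LP to ML, adjusted p = 0.000141) and the remodeller gene Chd3 from 129 through 256 to 295 CPM (1.20, adjusted p = 0.000525). Sin3a rose by 0.32 on the log2 scale (adjusted p = 0.046) and Rbbp7 fell by 0.42 (adjusted p = 0.0166), the latter a call lost with scaling by library totals. Of the COUP-TF nuclear receptors, with which BCL11A was first found to interact, 2 of 3 were tested, and both rose in HR-positive LP and in ML against HR-negative LP. Of all tested genes 17.2% and 23.3% were called higher in these comparisons. Nr2f2 stood at 3.45, 1.36 and 1.22 CPM in HR-negative LP, at 12.1, 13.0 and 10.9 CPM in HR-positive LP and at 16.5, 15.3 and 15.9 CPM in ML. Its level was lowest in the population where Bcl11a was highest (log2 fold change 2.98 from HR-negative LP to ML, SE 0.37, adjusted p = 6.22e-05). A link between the 2 genes was not tested. Nr2f6 rose from 74.1 to 118 CPM (0.67, adjusted p = 0.00366).

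The embryonic globin genes Hbb-y and Hbb-bh1, silenced by BCL11A in red cells, had 0 counts in all 9 libraries. Of 7 regulators of mesenchymal transition, a programme that Sox4 and Sox9 have been linked to, 3 were tested and 1 was called. The call was in ML against HR-negative LP, where 44.6% of all tested genes were called and 21.3% were called lower. Zeb2 was lower in ML than in HR-negative LP (log2 fold change -6.91, SE 2.51, adjusted p = 0.0437), on 27, 0 and 90 counts against 0, 0 and 1, so that the libraries overlapped at 0.

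Markers of other cells move with these results and their part in them was not tested. The basal marker Krt14 and the fibroblast gene Col3a1 (38.7, 5.82 and 12.1 CPM) were highest in HR-negative LP, as Sox5, Sox6, Sox10 and Bcl11a were. Krt14 did not differ by call between HR-positive LP and ML (log2 fold change -0.02, adjusted p = 0.996), where those 4 genes did. Other markers did step down with them. The basal marker Oxtr stood at 15.3, 4.52 and 0.293 CPM and was lower in ML than in HR-positive LP (log2 fold change -3.85, adjusted p = 0.0102), while its first step did not pass (-1.76, adjusted p = 0.0702). The fibroblast marker Pdgfra stood at 17.5, 4.02 and 0.477 CPM and was called lower at both steps (-2.12, adjusted p = 0.0357, and -2.99, adjusted p = 0.0345). Of the 12 basal markers 7 had their highest mean in HR-negative LP and 5 in ML, and the means of 5 (Krt14, Krt17, Mylk, Oxtr and Tagln) stepped down from HR-negative LP through HR-positive LP to ML, while 0 were called lower at both steps. Of the 7 fibroblast markers 6 had their highest mean in HR-negative LP and 1 (Dcn) in ML, and Pdgfra alone stepped down to ML. By call, of the 12 basal markers 0 were higher and 3 lower in HR-positive than in HR-negative LP. In ML 0 and 1 differed in this way from HR-positive LP, and 1 and 4 from HR-negative LP, where 29.9%, 6.79% and 44.6% of all tested genes were called. The genes that mark the sorted populations moved too. The 8 luminal progenitor markers summed to 12983 to 15736 CPM in HR-negative LP, 4049 to 4470 CPM in HR-positive LP and 149.8 to 289.6 CPM in ML, and the 8 hormone sensing markers to 211 to 500.3, 6119 to 7344 and 8773 to 11567 CPM.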

How the data were processed

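Per the labels' protocols, libraries were made from DNase-treated total RNA (50 ng or more) with a TruSeq kit that keeps no strand information. The deposited values are raw counts per NCBI gene number, and featureCounts and the build mm10 are named in the submitters' processing notes. The aligner, the annotation and how the authors handled multiply matched reads are not given in the sources used here. The series table and the files of single samples differed in 0 cells. Counts over the gene lists were taken from the edgeR fits alone, not from DESeq2 or limma voom. Single values of some list genes are not reported here. Of 27179 gene numbers, 25275 were matched to a symbol in RefSeq, and 1904 stayed in the data without a name, before the filter on low counts. RPKM used the gene lengths deposited with the counts, and shared stretches of 50 bases were sought in GENCODE vM21 transcripts.

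Low counts were removed by edgeR's filterByExpr, and the rest was scaled by TMM factors (0.904 to 1.10) and fitted over all 9 libraries with edgeR's quasi-likelihood test with no covariate, with Benjamini-Hochberg adjustment over 15910 genes and calls at 0.05. The difference of each HR-positive LP level from the midpoint of both other populations was a contrast in the same fit. Depth was 27219103 to 108119756 counts per library. Alternatives were DESeq2, limma voom, other scalings and filters, a replicate block, a fit of only the compared populations and leaving out each library. Statistics ran in R 4.3.3 with DESeq2 1.42.0, edgeR 4.0.16 and limma 3.58.1, and figures in matplotlib 3.10.9 under Python 3.11.15.

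All 10 genes were named in every comparison. From each of 9 lists with 89 genes, up to 4 genes called in ML against HR-negative LP with the smallest p were named, with markers of the sort and of other cell types. The 3 genes most like each of the 6 genes above a mean log2 CPM of 3 (prior count 2) were named too, without predicted genes, clones and unnamed numbers. The 10 genes and the lists were chosen with earlier results of these data known. Genes named outside this rule (Sox7, Sox15, Sox21, Acan, Mbp, Cdh19, Ncmap, Krt17, Mylk, Oxtr, Tagln, Col3a1, Pdgfra, Dcn, Cd2, Cd3d, Cd3g, Cd247, Lck, Hbb-y and Hbb-bh1) were chosen after their values were seen.

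The labels number the libraries 1 to 3 in each population without saying what a number shares. Across genes, the deviations of HR-positive LP and ML libraries with the same number from the means of their populations correlated at 0.183, 0.121 and 0.189. For HR-negative LP the correlations were 0.133, 0.0389 and 0.147 with HR-positive LP and 0.0526, 0.0254 and 0.0849 with ML. With different numbers, HR-positive LP and ML libraries correlated at -0.142 to -0.0503. HR-negative LP with different numbers correlated at -0.146 to 0.0192 with HR-positive LP and at -0.0816 to 0.0183 with ML. The main fit used no pairing. In the replicate block the number was a covariate for all 9 libraries, and its values are given where they change a call and for Sox9.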

Additional observations from a re-analysis of the deposited data

How the results depend on the processing

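Of 536 recomputed log2 fold changes of the 8 tested genes, 511 stayed on the same side of the threshold, 21 lost their call and 4 gained one. With a call in either fit, 0 changed direction, while changes of sign between values not called were not counted. In HR-positive LP against the midpoint, limma voom called 1 of the 8 genes where edgeR called 3. Leaving out each library in turn gave 4 to 6 called genes in HR-positive against HR-negative LP, 4 in ML against HR-positive LP, 6 in ML against HR-negative LP and 2 to 3 against the midpoint. With the replicate block, Sox13 was called in ML against HR-positive LP (log2 fold change -0.47, adjusted p = 0.0270) and Sox12 against the midpoint (1.16, adjusted p = 0.00361), and the block changed no other call of the 8 genes. The number of all genes called against the midpoint was 566 without HR-positive LP replicate 2 and 956 with all libraries. The log2 difference of the Sox10 to Sox9 ratio ranged from -1.71 to -1.46, from -5.84 to -4.71 and from -7.45 to -6.32 over the libraries left out, in the order of the report. Where leaving out a library leaves 2 in a population, the fit pools the spread of all populations.

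Scaling by library totals moved the median log2 fold change of all genes by 0.11, 0.05 and 0.16 in the 3 comparisons of populations. It gave 1 higher SOX10 target in place of 0 and 2 higher BAF subunits in place of 1 in HR-positive against HR-negative LP, and 1 higher basal gene in place of 0. The lower calls of Ezh2 and Rbbp7 became 0 in place of 1, as did the higher call of Nr2f2 against the midpoint (log2 fold change 1.08, adjusted p = 0.0495, with TMM factors). Depth limits Sox11 and Bcl11b, with at most 14 counts in a library, and Sox5 in ML. The cause of these changes was not tested.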
